A study of Mus musculus with 4 samples.

Results

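The neurexins, neuroligins and Lrrtm proteins are cell surface proteins that join the 2 sides of a synapse. The 9 genes described here are Nrxn2, Nrxn3, Nlgn1, Nlgn2, Nlgn3, Lrrtm1, Lrrtm2, Lrrtm3 and Lrrtm4, out of 19938 genes with a probe set of their own in the deposited table. They were chosen by symbol, as probe sets annotated with exactly 1 of these names, and each of the 9 has 1 such probe set. A probe set is the group of array probes that reads a gene, and its value is the summarised brightness of those probes on a log2 scale, so that a difference of 1 is a doubling.

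Neurexins sit on the presynaptic terminal, where they organise the release site, and bind several kinds of partner across the cleft. Neuroligins and the leucine-rich repeat proteins of the Lrrtm family are postsynaptic partners of neurexins, and they help to gather receptors and scaffold proteins opposite the terminal. Neurexin genes make long alpha and short beta forms from separate promoters and are heavily spliced. A summary value per gene does not separate these forms.

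The RNA came from whole brains of C57BL/6J fetuses at embryonic day 16, a stage before most synapses of the cortex form. Pregnant females of the ethanol group were injected with ethanol in saline at 2.5 g per kg on gestational days 14 and 16, and females of the control group received the same volume of saline. RNA of 3 mice was pooled for each Affymetrix whole-transcript array, which gave 2 ethanol arrays and 2 control arrays from 12 mice. The sex of the fetuses is labelled as unknown, and the sources used here do not give the litters behind each pool. Each p-value therefore rests on spread between pools, not between single mice or litters. For p-values, standard errors and intervals, the limma fit used below combines each gene's own spread with that of all genes.

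The brain label was borne out by neuronal genes, and the pools differed within each group in RNA of other cells. The median log2 level of 15 neuron markers lay between 12.17 and 12.36 on the 4 arrays. All 12 skeletal muscle markers were highest on control 1, where their median was 9.92, against 7.57 on ethanol 1, 8.58 on ethanol 2 and 7.66 on control 2. Control 1 was also the highest array for 9 of 9 markers of dividing cells, 10 of 10 pericyte, fibroblast and meningeal markers and 9 of 10 endothelial markers. The endothelial markers also divided by group. Of the 10, 0 had a difference above 0 between ethanol and control, with a median of -0.16. Both ethanol arrays lay below both controls in 7 of the 10, against 14% of all genes. That held for 2 of the 10 pericyte, fibroblast and meningeal markers and for 0 of the muscle and dividing cell markers. Limma called 0 of the endothelial markers at an adjusted p under 0.05. Xist, the RNA of the inactive X chromosome of females, stood at 6.10 on control 1 and at 11.96 to 12.84 on the other arrays. The value on control 1 lay below the lower quartile of the arrays (6.45 to 6.55). Of the Y chromosome, Uty, Kdm5d and Eif2s3y were measured, and each was highest on control 1. These differences matter for the 9 genes described here because control 1 was also the lowest array in 8 of them, in some by a small margin. Their ethanol differences are given with and without that array, and those of the partner, scaffold and other adhesion genes only with all arrays. In whole tissue, fewer cells of a type and less RNA per cell cannot be told apart.

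RefSeq promoter sequences (GRCm38.p6) were matched for 6 of the 9 genes, with 10 start sites among them. Entries for Nrxn2, Nlgn3 and Lrrtm2 were not matched. The 250 bases before each start are described here, and a link between them and the array values was not tested. Those of Lrrtm3 and Nlgn2 are shown, since their starts are at the outer end of the gene and the sequences differ clearly in base composition. Capitals mark CG dinucleotides, and both are on the minus strand, at chr10:64090256-64090505 for Lrrtm3 and at chr11:69837785-69838034 for Nlgn2.
Lrrtm3: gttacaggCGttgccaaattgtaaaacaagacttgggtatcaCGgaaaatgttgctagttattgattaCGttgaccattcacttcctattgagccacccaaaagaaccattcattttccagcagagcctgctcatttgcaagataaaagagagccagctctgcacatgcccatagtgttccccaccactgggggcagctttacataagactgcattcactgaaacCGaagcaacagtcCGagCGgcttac
Nlgn2: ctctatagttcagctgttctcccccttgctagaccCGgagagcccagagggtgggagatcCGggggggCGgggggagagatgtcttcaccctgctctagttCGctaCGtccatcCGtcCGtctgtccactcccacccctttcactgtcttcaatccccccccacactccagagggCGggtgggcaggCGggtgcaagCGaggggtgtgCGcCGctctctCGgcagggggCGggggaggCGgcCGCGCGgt

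The Nlgn2 window held 18 CG dinucleotides and 67.6% G or C, and the Lrrtm3 window held 6 and 46%. Over 32851 promoter windows of this length the median was 6 CG dinucleotides, with quartiles of 2 and 16, and the median share of G or C was 52.4%. The 10 windows of these genes ranged from 2 CG dinucleotides, at a start of Nrxn3, to the 18 of Nlgn2. The sequence CAGCTG, an E-box bound by proneural factors, was in 3 of the 10 windows (Nlgn2 and both starts of Lrrtm4), against 13% of all windows. The TATA box TATAAA was in 1 of the 10 (Lrrtm4), against 12.4%. The sequence TTCAGCACC, the left arm of the RE1 element bound by the repressor REST, was in 1 of the 10 (a start inside Nlgn1), against 0.301%. All were searched on both strands, where matches could overlap, and a match is a description of the letters only.

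None of the 9 genes differed between ethanol and control beyond the spread of the pools. Limma with Benjamini-Hochberg adjustment over all genes called 0 of the 9, and 0 of 19938 genes in all (0%), at an adjusted p under 0.05. At an unadjusted p under 0.05 it also called 0 of the 9, against 587 genes or 2.94% of all. The smallest unadjusted p among the 9 was 0.133, for Lrrtm1, and their adjusted p-values ran from 0.980 to 0.999. The 95% confidence intervals of the 9 fold changes together spanned 0.865-fold to 1.41-fold. These data thus bound each change rather than show that it is absent.

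**Figure D1:**
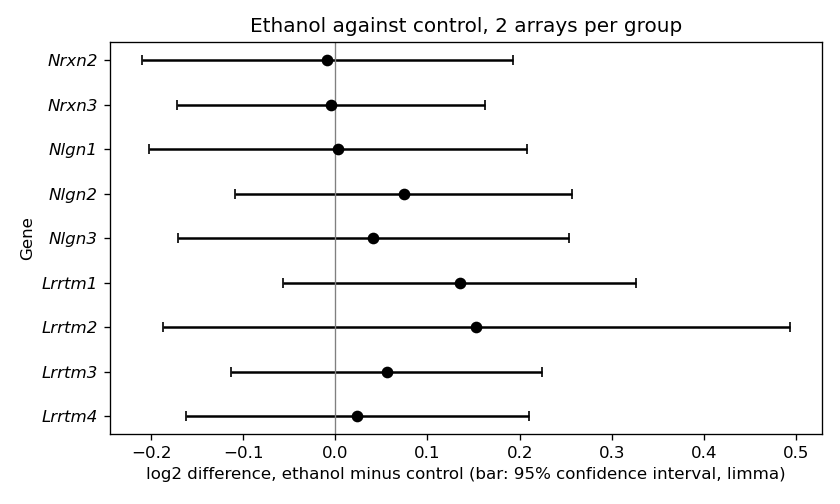
Log2 difference between ethanol and control (x axis) for the 9 genes (y axis), with points for the difference of the group means of 2 arrays each and bars for the 95% confidence interval from limma. All 9 intervals cross 0, and that of Lrrtm2 is the widest, from -0.19 to 0.49.

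The neurexins had differences close to 0, well within the spread of the controls. Nrxn3 stood at log2 values of 11.89 and 11.90 on ethanol 1 and ethanol 2 and at 11.87 and 11.93 on control 1 and control 2. Both ethanol arrays lay between the controls, which enclosed them within a range of 0.06, the narrowest of the 9 genes. The log2 difference was -0.0050 ± 0.067 (SE, 2 arrays per group), with a 95% interval from -0.17 to 0.16. Nrxn2 stood at 11.37 and 11.36 in the ethanol pools and at 11.29 and 11.45 in the saline pools. Here too the ethanol arrays lay between the controls, and the log2 difference was -0.0087 ± 0.081 (SE). For both neurexins the lowest array was control 1 and the highest control 2, so that the widest gap was between arrays of the same group.

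The neuroligins divide by synapse type. Nlgn1 is found mainly at excitatory synapses and Nlgn2 at inhibitory ones, while Nlgn3 occurs at both. Nlgn1 stood at 11.29 and 11.17 on ethanol 1 and ethanol 2 and at 11.17 and 11.29 on control 1 and control 2. The groups thus had almost the same values with the arrays in opposite order, and the log2 difference was 0.0027 ± 0.083 (SE). Nlgn1 was the exception among the 9 genes in that its lowest array was ethanol 2, although ethanol 2 minus control 1 was only -0.0015.

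Nlgn2 stood at 11.42 and 11.38 with ethanol and at 11.27 and 11.38 with saline. Control 1 was low, the other arrays lay close together, and ethanol 2 and control 2 were level. The log2 difference was 0.07 ± 0.07 (SE), with an interval from -0.11 to 0.26. Nlgn3, which lies on the X chromosome, stood at 11.80 and 11.78 with ethanol and at 11.66 and 11.84 with saline. Control 1 was again the lowest and control 2 the highest, and the difference was 0.04 ± 0.09 (SE). Control 1 is also the array with the lowest Xist value and the highest values of the Y chromosome genes. The part of fetal sex in the values of Nlgn3 or of the other members was not tested.

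All 4 Lrrtm genes had differences above 0, and Lrrtm1 and Lrrtm2 had the largest of the 9 genes. Lrrtm1 stood at 8.74 and 8.77 on ethanol 1 and ethanol 2 and at 8.55 and 8.69 on control 1 and control 2. Both ethanol arrays were above both controls, with a gap of 0.05 between the nearest arrays and of 0.14 between the controls themselves. The log2 difference was 0.14 ± 0.08 (SE), a fold of 1.10 with a 95% interval from 0.962 to 1.25, and the adjusted p was 0.980 in limma. Without control 1 the difference came to 0.07 and without control 2 to 0.20.

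Lrrtm2 varied most from array to array. It stood at 11.45 and 11.33 with ethanol and at 11.04 and 11.43 with saline. Control 1 was well below the other arrays, and control 2 lay between the ethanol arrays. The gap between the controls, at -0.39 for control 1 minus control 2, exceeded the difference between the groups, which was 0.15 ± 0.14 (SE). The difference turned to -0.04 without control 1 and grew to 0.35 without control 2, so both its sign and its size rest on which control array is used.

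Lrrtm3 stood at 11.11 and 11.06 with ethanol and at 11.00 and 11.06 with saline. Ethanol lay above control on all arrays, but ethanol 2 exceeded control 2 by only 0.0067, and the difference was 0.06 ± 0.07 (SE). Lrrtm4 stood at 10.07 and 9.97 with ethanol and at 9.95 and 10.04 with saline. The groups overlapped, with replicate 1 high in ethanol and low in control, and the difference was 0.02 ± 0.07 (SE).

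**Figure D2:**
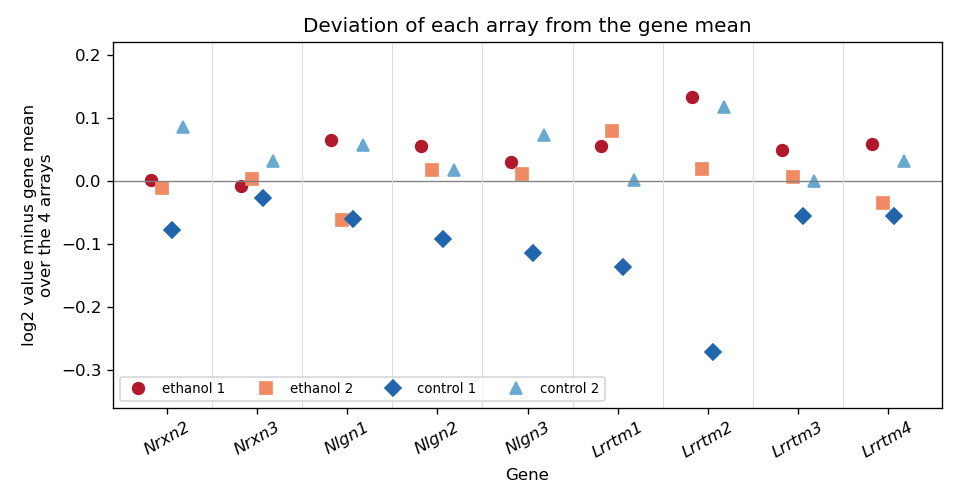
Log2 value on each array minus the gene's mean over the 4 arrays (y axis) for the 9 genes (x axis), with a marker for each array. Control 1 (diamonds) is the lowest array in 8 of the 9 genes, and its deviation is largest in Lrrtm2.

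The groups did not overlap in 2 of the 9 genes, Lrrtm1 and Lrrtm3, both higher in ethanol. Over all genes 31.4% had groups that did not overlap, 17.4% with ethanol higher and 14% with ethanol lower, so 2 of 9 is no more than the background. Of the 9 differences, 7 were above 0, against 54.2% of all genes, and their median was 0.04, against 0.0088 over all genes. Without control 1 the median turned to -0.03, and 6 of the 9 differences were below 0: Nrxn2 (-0.09), Nrxn3 (-0.03), Nlgn1 (-0.06), Nlgn3 (-0.05), Lrrtm2 (-0.04) and Lrrtm4 (-0.02). The other 3 were then at 0.02 (Nlgn2), 0.07 (Lrrtm1) and 0.03 (Lrrtm3). The share and median over all genes were taken only with all arrays, so the values without control 1 have no background beside them. The differences by role had medians of -0.0068 for the 2 neurexins, 0.04 for the 3 neuroligins and 0.10 for the 4 Lrrtm genes. The difference between these families was not tested.

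What the genes shared was a low value on control 1. It was the lowest array in 8 of the 9 genes, against 32.5% of all genes, and in 10 of the 15 neuron markers. Control 1 minus control 2 ran from -0.39 in Lrrtm2 to -0.05 in Lrrtm3, with a median of -0.12, against -0.0100 over all genes and -0.06 over the neuron markers. All 9 genes were therefore lower on control 1 than on control 2. Ethanol 1 minus ethanol 2 had a median of 0.04 over the 9 genes, with a negative value for Nrxn3 and Lrrtm1. Against control 1, the median difference was 0.12 for ethanol 1 and 0.07 for ethanol 2. Against control 2 it was 0.02 for ethanol 1 and -0.06 for ethanol 2, so the sign depended on the control and, with control 2, on the ethanol pool. Over all genes, the medians against control 1 were 0.03 for ethanol 1 and -0.0046 for ethanol 2. Those against control 2 were 0.02 and -0.0096. The muscle, dividing cell, mesenchymal and endothelial markers were highest on the same control 1, and their part in the low values of these genes was not tested.

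The order of the arrays changed when the 9 genes were set against the neuron markers. After each array was centred on the median deviation of the neuron markers, control 1 was the lowest array in 5 of the 9 genes, and 5 of the 9 differences were above 0. Nlgn1 then stood at a log2 difference of -0.03 and Lrrtm4 at -0.0049, both turned in sign, while Lrrtm1 stood at 0.11 and Lrrtm2 at 0.12. The Lrrtm2 gap between the controls was still -0.31 on this scale, and those of the other 8 genes lay between -0.11 and 0.02. Centring on the median level of the neuron markers in place of their median deviation left 2 of the 9 differences above 0, Lrrtm1 at 0.02 and Lrrtm2 at 0.04, with a median of -0.07. On every array that median level was the value of Gap43, 1 of the 15 markers, so this centring set the 9 genes against a single gene. Gap43 itself had a log2 difference of 0.1147, against a median of 0.0154 over the 15 markers. Nlgn2, Nlgn3 and Lrrtm3 were above 0 with the first centring and below it with the second. The differences of the 15 markers themselves ran from -0.38 (Tubb3) to 0.19 (Snap25), so their median stands for genes that did not move together. Shares over all genes were not taken after either centring, so these counts have no background beside them. Both centrings were chosen after the data were seen.

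**Figure D3:**
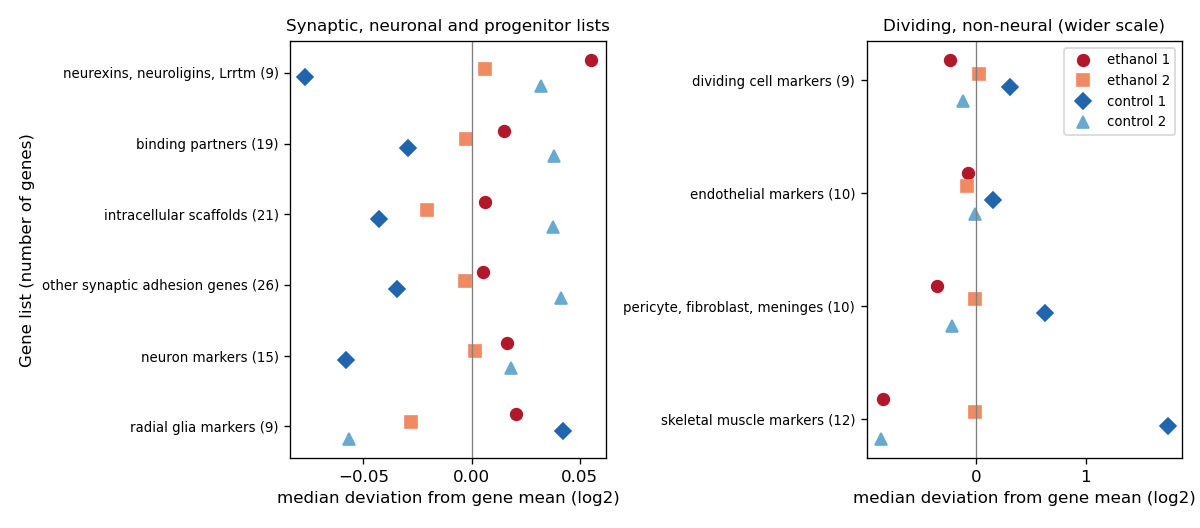
Median over the genes of a list of the log2 deviation from each gene's mean (x axis) for each gene list (y axis, number of genes in brackets), with a marker for each array and a wider scale on the right. Control 1 is the lowest array for the neurexin, neuroligin and Lrrtm genes, at -0.08, and the highest for the skeletal muscle markers, at 1.75.

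Over the 4 arrays, 3 genes came closest to the pattern of Lrrtm2, the member with the largest difference. The measure was the root mean square difference of mean-centred log2 values over the 4 arrays. Sphkap, which encodes an anchoring protein for protein kinase A, was at 0.0084, Rxfp2, a relaxin family receptor, at 0.0100 and Tmem91 at 0.013. Rxfp2 was dim, at 6.53 on control 1 and 6.84 to 6.94 on the other arrays, near their lower quartile (6.45 to 6.55). In Sphkap control 1 stood at 9.80 and the other arrays at 10.09 to 10.20. In all, 102 genes came within 0.05 of Lrrtm2 by this measure, these 3 included.

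No gene for a partner or scaffold of these proteins passed the adjusted test. Of 19 genes for binding partners of neurexins and neuroligins, limma called 0 at an adjusted p under 0.05 in either direction and 1 at an unadjusted p under 0.05, and 9 had a difference above 0 (median -0.0052). Nxph4, a neurexophilin, had the highest, at 0.32 ± 0.12 (SE), with values of 9.78 and 9.46 in ethanol and 9.26 and 9.34 in control. The groups were apart and the unadjusted p was 0.0386 in limma, with an adjusted p of 0.980. C1ql2, a secreted C1q-like protein, stood at 0.19 ± 0.10. Clstn1, a calsyntenin, stood at -0.14 ± 0.07 and the neurexophilin Nxph2 at -0.10 ± 0.07. The levels of Nxph2, from 6.02 to 6.18, lay below the lower quartile of the arrays (6.45 to 6.55).

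Of 21 measured genes for intracellular scaffolds, 0 were called in either direction by the adjusted p and 0 by the unadjusted, and 10 were above 0 (median -0.0018). Lin7a and Lin7b encode small PDZ proteins of the complex that binds the neurexin tail, and they stood at 0.14 ± 0.08 and 0.11 ± 0.10. Shank3, a master scaffold of the postsynaptic density, stood at -0.15 ± 0.07, with values of 8.94 and 8.96 in ethanol and 9.06 and 9.15 in control. Dlg2, the scaffold PSD-93, stood at -0.14 ± 0.09. Lin7a and Lin7b thus lay above 0 and Shank3 and Dlg2 below it, and none passed the test.

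Of 26 measured genes for other synaptic adhesion proteins, 0 were called in either direction by the adjusted p and 2 by the unadjusted, and 12 were above 0 (median -0.0091). Slitrk2, a postsynaptic partner of receptor tyrosine phosphatases, had the highest difference of the 3 lists, at 0.51 ± 0.09 on its brighter probe set and 0.0060 on the other. Cadm4, an immunoglobulin adhesion protein, stood at 0.26 ± 0.09. Il1rapl1, another phosphatase ligand, stood at -0.17 ± 0.10 and Lrfn1, a leucine-rich repeat protein, at -0.09 ± 0.07. In these 3 lists control 1 was the lowest array in 10 of 19, 11 of 21 and 13 of 26 genes, and control 1 minus control 2 had medians from -0.104 to -0.0953.

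**Figure D4:**
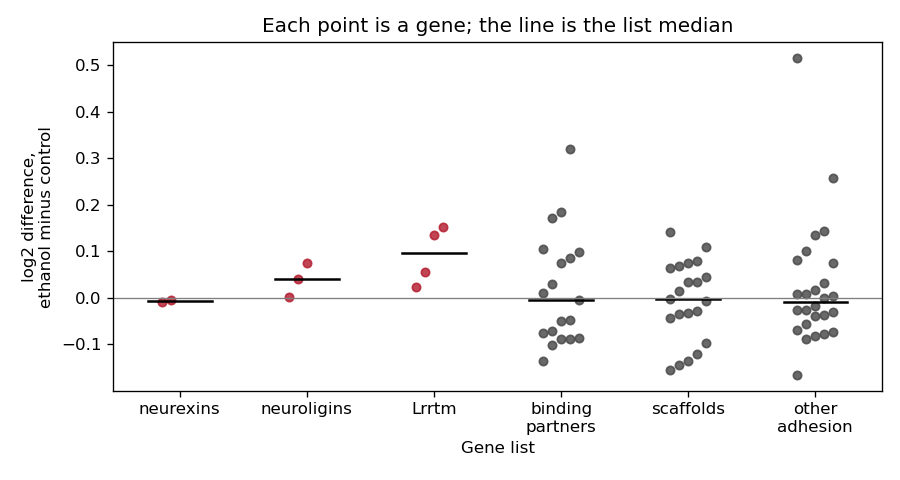
Log2 difference between ethanol and control (y axis) for each gene of the neurexin, neuroligin and Lrrtm families and of the 3 lists of partners, scaffolds and other adhesion genes (x axis), with a line at each median. The medians of the 3 lists lie between -0.0091 and -0.0018, and the highest point is Slitrk2 at 0.51.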

How the data were processed

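The values analysed are log2 values deposited by the authors, with 1 value per probe set and array for 4 arrays. Their range, rather than any label, is the basis for reading them as log2. The submitters' processing notes name Partek 6.6. How background was corrected, arrays were normalized and probes were summarised is not given in the sources used. Array medians lay between 8.01 and 8.04, and the number of arrays limits the precision.

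Of 35556 probe sets, 21789 have 1 gene symbol in the platform annotation, 1621 several and 12146 none. Entrez identifiers gave current symbols for 21698 of the first kind in a GRCm38.p6 gene table, and 91 were left as annotated. The probe set with the highest mean represented each gene. Ethanol and control were compared over 19938 genes with limma 3.58.1 (R 4.3.3), two-sided, with 2 residual and 5.65 total degrees of freedom. The fit was tested on simulated data.

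The members and gene lists were chosen with earlier results of these data known. The text names all members, for each pathway list the 2 highest and 2 lowest differences, and the 3 genes most like the member with the largest difference. List genes that were not matched to a probe set were not analysed here. Radial glia markers (9 genes) had a median difference of -0.0040. Alternatives were other scalings, variance models, filters, replicate blocks and leaving out each array.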

Additional observations from a re-analysis of the deposited data

How the results depend on the processing

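The count of members past the adjusted threshold was 0 under all alternatives run, and that of all genes was 0 except without control 2, when 4 were called (range 0 to 4 with an array left out). Members with groups apart ranged from 3 to 8 with an array left out. A group of 1 array then overlaps less easily and is assumed to vary like the other. The count was 2 as reported and 3 after median centring. It was 4 after centring on the median deviation of the neuron markers and 7 after centring on their median level. The share over all genes was taken only for the count as reported (31.4%), so the other counts have no background beside them. With an array left out, the median member difference ranged from -0.0345 to 0.083. It was -0.074 after centring on the median level of the neuron markers. That centring, chosen after the data were seen, subtracted the value of Gap43 on each array. It turned Nlgn1 (-0.11), Nlgn2 (-0.041), Nlgn3 (-0.074), Lrrtm3 (-0.059) and Lrrtm4 (-0.091). Centring on their median deviation turned Nlgn1 (-0.026) and Lrrtm4 (-0.0049). Quantile normalization of the deposited values turned Nrxn2 (0.0032) and Nrxn3 (0.0062), and median centring turned Nrxn3 (0.00049). The cause was not tested. With an array left out, the differences ranged from -0.090 to 0.073 for Nrxn2, -0.0345 to 0.025 for Nrxn3, -0.060 to 0.066 for Nlgn1, -0.052 to 0.13 for Nlgn3, -0.042 to 0.35 for Lrrtm2 and -0.022 to 0.070 for Lrrtm4, while Nlgn2, Lrrtm1 and Lrrtm3 stayed above 0. Nothing in the labels pairs arrays by replicate number. Over all genes, ethanol 1 minus ethanol 2 and control 1 minus control 2 had a correlation of -0.48. A replicate block gave 0 genes and 0 members called. With crossed pairing, chosen after the data were seen, 0 genes and 0 members were called. All members lay above the median of each array (8.01 to 8.04).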
